A study of Mus musculus with 73 samples.

Results

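The genes described here were chosen by name, with no cut on their measured values but with earlier results of these data known. These genes form the receptor and signalling chain for the cytokines IL-4 and IL-13. They were 9 of the 23994 mouse gene rows: the receptor chains Il4ra, Il13ra1, Il13ra2 and Il2rg, the kinases Jak1 and Jak3, the transcription factor Stat6, and the inhibitors Socs1 and Socs3. All 9 had a row, and their transcripts were followed in 73 single cells sorted as lung macrophages. The cells formed 1 group. They came from right lung lobes of the B6 Csf1r-GFP strain at an adult age of 10 weeks. The left lung had been removed 7 days before (pneumonectomy, after which the remaining lobes grow). The labels name no animals, and the cells were treated as coming from 1 mouse. The sort was given as CD45+, CSF1R-GFP+ and F4/80+, with Ly6G named without a sign. The reporter marks cells that use the Csf1r promoter, which monocytes as well as macrophages do. No lung without the operation was analysed here, and no value describes an effect of surgery. Cells treated as from 1 mouse are not replicates, so detection shares and levels are described without a test.

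IL-4 and IL-13 are cytokines of type 2 immunity that drive macrophages towards an alternatively activated state, which has been tied to tissue repair. IL-4 binds the IL-4 receptor alpha chain (Il4ra), which then pairs either with the common gamma chain (Il2rg) in the type I receptor or with Il13ra1 in the type II receptor; IL-13 uses the type II receptor. Jak1 is bound to Il4ra, Jak3 to the common gamma chain and Tyk2 to Il13ra1, and these kinases phosphorylate the receptor and Stat6, which enters the nucleus and switches on target genes. Il13ra2 binds IL-13 with high affinity and is mostly described as a decoy. Socs1 and Socs3 are induced by cytokines and damp JAK-STAT signalling.

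Each cell held between 347003 and 3485945 estimated mouse fragments (median 1408839) and between 1044 and 3745 detected genes (median 2290). A gene was called detected at 1 or more FPKM (fragments per kilobase of transcript, scaled to the mapped fragments of the cell). Intervals on shares are exact Clopper-Pearson 95% intervals and cover counting error only; fragments amplified without molecular identifiers are not independent molecules. Even common genes were missed in part of the cells: Hprt, a purine salvage enzyme, was detected in 38 of the 73 and Tbp, the TATA-box binding protein, in 10. A cell listed at 0 for a gene therefore need not have lacked its RNA. Of the genes behind the sort, Ptprc (CD45) was detected in 69 cells, Csf1r in 65 and Emr1 (F4/80) in 41. The T cell genes Cd3e, Cd3g and Lck and the B cell genes Cd79a and Ms4a1 were listed at 0 in every cell, but other genes of the same marker lists were detected. Cd2 was found in 15 cells, Cd3d and Il7r in 5 each and Cd79b in 3. No cell detected more than 2 of 10 T and NK cell genes or more than 1 of 6 B cell genes. In 3 cells, numbered 2, 38 and 54, at least 3 endothelial markers stood at 10 FPKM or more. Of the 9 genes, cell 38 detected 4, cell 2 detected Jak1 alone and cell 54 detected none. No caller for doublets was run.

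The chain was detected unevenly from gene to gene. Jak1 was the most widely carried, in 57 of the 73 cells, followed by Il13ra1 in 36, Stat6 in 30, Il2rg in 29, Socs3 in 28 and Il4ra in 20. Jak3 was detected in 3 cells, Socs1 in 2 and Il13ra2 in none. In this order Jak1 stood apart from the rest. The intervals of Il13ra1, Stat6, Il2rg, Socs3 and Il4ra overlapped, and so did those of Jak3 and Socs1. Most cells held a few of the 9 genes and no cell held more than 6. The median was 3 genes a cell. None were detected in 3 cells, 1 in 10 cells, 2 in 17 cells, 3 in 20 cells, 4 in 16 cells, 5 in 5 cells and 6 in 2 cells. The number went along with how many genes were found in a cell at all: the 36 cells with more genes than the median detected 3.19 of the 9 on average, and the other 37 cells detected 2.43. Stat6 was detected in 20 of these 36 richer cells and in 10 of the 37 poorer ones, while Il4ra was detected in 10 cells of either class.

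**Figure D1:**
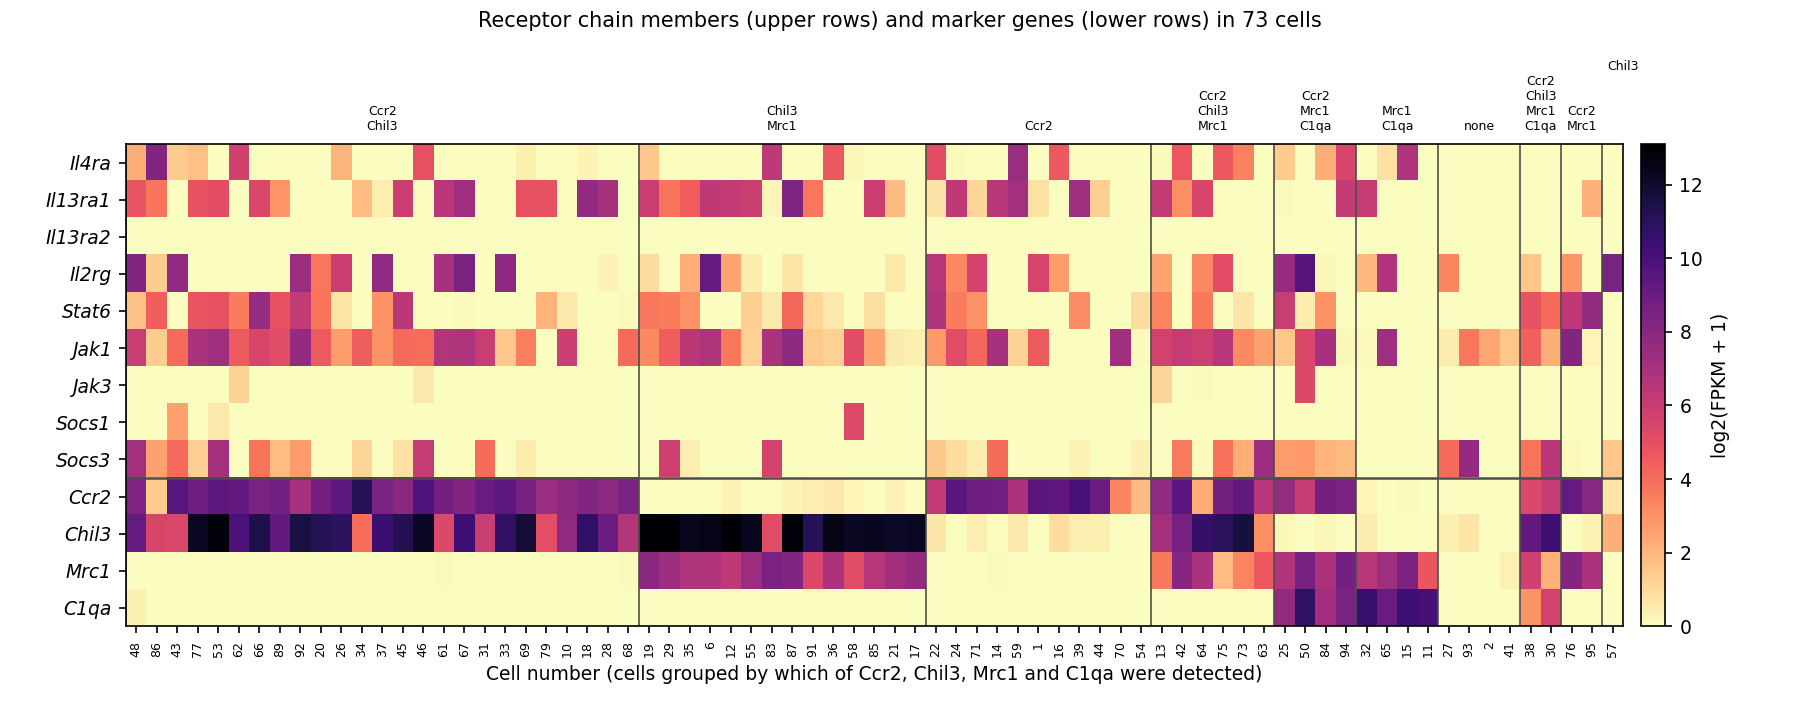
Level of the 9 genes (upper rows) and of 4 marker genes (lower rows) in each of the 73 cells, as log2(FPKM + 1), with cells ordered by which of Ccr2, Chil3, Mrc1 and C1qa they detected. Jak1 is filled in 57 columns, Jak3 in 3, Socs1 in 2 and Il13ra2 in none.

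Il4ra (chr7:125552120-125579474 on the + strand, mm10), the chain that every IL-4 receptor complex contains, was detected in 20 cells (27.4%, interval 17.6 to 39.1). Its level in these carriers was lowest at 1.61 FPKM, had a median of 23.9 and reached 291 FPKM in cell 86. Next came cell 59 with 173 FPKM and cell 15 with 104 FPKM, and these 3 cells together held 61.2% of all Il4ra signal. A median of 196 fragments lay behind a carrier's value, and the smallest number was 11, so no carrier rested on a single fragment. Another 6 cells had values above 0 but under 1 FPKM. At 10 FPKM or more, 12 cells remained. Every other detected member had a carrier on fewer than 11 fragments. The lowest counts were 2 for Il2rg, 4 for Jak1, 6 for Socs3 and 7 for Stat6.

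Il13ra1 (chrX:36112110-36171259, + strand), the second chain of the type II receptor, was detected in 36 cells (49.3%, interval 37.4 to 61.3). Its carriers ran from 1.15 FPKM over a median of 49.2 to 319 FPKM in cell 87. Of the 36, 29 stood at 10 FPKM or more, so most carriers were well above the detection limit. Il13ra2 (chrX:147383476-147429192, - strand), the decoy chain, was listed at 0 in all 73 cells. A count of 0 in 73 allows a share of up to 4.11% when taken as 3 of 73, and up to 4.93% by the exact interval.

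Il2rg (chrX:101264378-101268255, - strand), the common gamma chain, which receptors for several other cytokines also use, was detected in 29 cells (39.7%, interval 28.5 to 51.9). Carriers ran from 1.53 FPKM over a median of 46 to 784 FPKM in cell 50, the highest value that any of the 9 genes reached. Receptors that share this chain were rarer. Il7r was detected in 5 cells, Il21r in 3, Il15ra in 2 and Il2ra in 1, and Il2rb and Il9r were listed at 0 throughout.

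Jak1 (chr4:101152367-101265282, - strand) was detected in 57 cells (78.1%, interval 66.9 to 86.9), with a level of 1.34 FPKM in the lowest carrier, a median of 21.7 and 291 FPKM in cell 76. Of all genes detected in any cell, 4.10% were found in as many cells or more. Jak3 (chr8:71676296-71690575, + strand), the partner of the common gamma chain, was detected in 3 cells (4.11%, interval 0.856 to 11.5): at 40.2 FPKM in cell 50, 1.32 in cell 62 and 1.21 in cell 13. Cell 50 was also the cell with the most Il2rg. The remaining kinases of the family were found in fewer cells than Jak1 and in more than Jak3, Jak2 in 21 and Tyk2 in 17. Insl3, a gene whose exons overlap those of Jak3 on the same strand, was detected in 3 cells, 1 of them a Jak3 carrier, and whether the authors' tool divided reads between the pair was not tested.

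Stat6 (chr10:127642986-127660957, + strand) was detected in 30 cells (41.1%, interval 29.7 to 53.2). Its carriers had lower levels than those of the receptor chains, from 1.18 FPKM over a median of 12.1 to 191 FPKM in cell 95. A gene on the opposite strand with overlapping exons, Nab2, was detected in 3 cells, all of them Stat6 carriers; the counting was not stated to use strand, so their reads cannot be told apart. Among the other STAT genes, Stat3, which IL-6 and IL-10 activate, was found in more cells than Stat6, in 45. Stat5a was found in 14, Stat5b in 13, Stat2 in 10 and Stat4 in 2.

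Socs3 (chr11:117966079-117970047, - strand), an inhibitor best known for receptors of the IL-6 family, was detected in 28 cells (38.4%, interval 27.2 to 50.5). Carriers ran from 1.2 FPKM over a median of 13.2 to 196 FPKM in cell 93. Socs1 (chr16:10782240-10785536, - strand), an inhibitor of interferon and IL-4 signalling, was detected in 2 cells (2.74%, interval 0.334 to 9.55), at 37.4 FPKM in cell 58 and 4.79 FPKM in cell 43. Cell 43 was the only cell with both inhibitors. In the rest of the family, Cish was detected in 16 cells, Socs2 in 9, Socs4 and Socs7 in 4 each, Socs6 in 3 and Socs5 in 2, so Socs3 was the member found in the most cells.

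**Figure D2:**
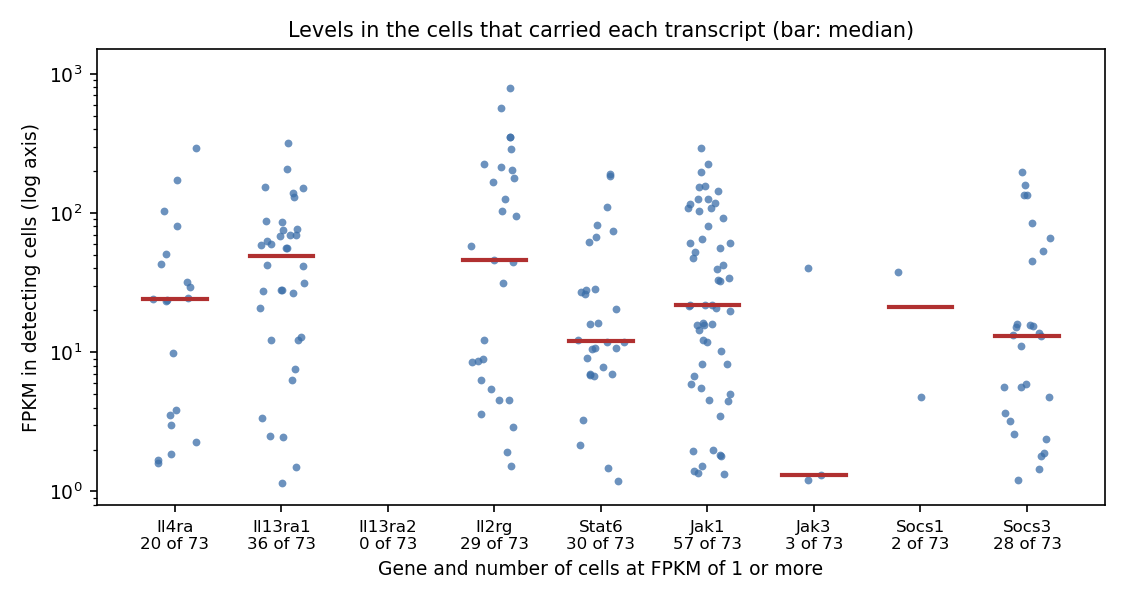
FPKM, on a log axis, of each gene in the cells that detected it, 1 point per cell, with a red bar at the median. The carriers of Il13ra1 and Il2rg have the highest medians among genes with more than 3 carriers, 49.2 and 46 FPKM, and Stat6 and Socs3 the lowest, 12.1 and 13.2 FPKM.

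The promoter of Socs3 is shown because it was the 1 of the 9 windows with a match to TTCNNNGAA, the general STAT pattern, searched on both strands. All 9 genes were matched to RefSeq windows (GRCm38.p6) of 250 bases before to 50 after the start site. The 250 bases before the start of Socs3 are printed 5′ to 3′ on its - strand, at chr11:117969367-117969616, with the match in capitals. They contain an exon of a non-coding Socs3 transcript (chr11:117969375-117969451 in GENCODE vM21).
Socs3: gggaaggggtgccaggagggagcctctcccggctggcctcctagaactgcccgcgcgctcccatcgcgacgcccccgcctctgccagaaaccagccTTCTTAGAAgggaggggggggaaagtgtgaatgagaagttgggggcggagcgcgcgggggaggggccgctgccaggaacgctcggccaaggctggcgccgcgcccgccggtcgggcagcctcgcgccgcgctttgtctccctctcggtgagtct
Socs3 held 1 TTCNNNGAA match, TTCTTAGAA, which begins 154 bases before the start. Of 32851 promoter windows of the same length, 8.30% held TTCNNNGAA. A match is a run of letters and not a binding site, and no match in the other 8 windows says only that these letters were not there.

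Cells were then sorted by 4 marker genes, each called positive at 1 FPKM. Ccr2, the chemokine receptor of inflammatory monocytes, was detected in 50 cells. Chil3, a chitinase-like protein made by alveolar macrophages, by monocytes and on IL-4 stimulation, was detected in 48, Mrc1, the mannose receptor, in 32 and C1qa, a complement subunit typical of interstitial macrophages, in 10. The classes overlap, since a cell can carry several markers. Where thinning or another detection limit is given below, it applied to the gene that defines the classes too, so their cells also changed. Each member's share in positive cells was set against that in negative cells, and a gap of 20 percentage points was used as a size threshold, applied alike to 6150 genes detected in at least 8 cells. Of the 9 members, 6 were detected that often, and Il13ra2, Jak3 and Socs1 were not compared in this way. The intervals are wide, and for each of the 6 members those of positive and negative cells overlapped for all 4 markers.

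Stat6 and Socs3 were found in a larger share of the Ccr2-positive cells. Stat6 was detected in 24 of 50 Ccr2-positive cells (48%, interval 33.7 to 62.6), against 6 of 23 Ccr2-negative cells (26.1%, interval 10.2 to 48.4). Its carriers had a median of 18.3 FPKM among Ccr2-positive cells and 8.84 FPKM among Ccr2-negative cells. Socs3 was detected in 23 Ccr2-positive cells (46%) and in 5 Ccr2-negative cells (21.7%). Il4ra was detected in 16 Ccr2-positive cells (32%) and in 4 Ccr2-negative cells (17.4%), a gap under the threshold. Il13ra1 was found at nearly equal shares, in 25 Ccr2-positive (50%) and 11 Ccr2-negative cells (47.8%). So 2 of the 6 members were higher by 20 points or more in Ccr2-positive cells, where 7.28% of all compared genes were, and none was lower, where 6.85% of all genes were. The median gap was 14.1 points for the 6 members and 0.609 points for all genes. The gap of Stat6 was 21.9 points and ranged from 11.5 to 36.6 over 20 draws that thinned every cell to 347003 fragments; that of Socs3 was 24.3 points and ranged from 15.8 to 30.8. When any value above 0 counted as detection, 59 cells were Ccr2-positive and 0 members passed the threshold. At 10 FPKM, with 46 Ccr2-positive cells, other members passed it, Il2rg by 21.5 and Jak1 by 22.3 points. The gap of Stat6 was then 14.1 and that of Socs3 11.3. Ccr2-positive cells had a median of 2275 detected genes and 1570626 mouse fragments, against 2309 genes and 1155306 fragments in Ccr2-negative cells; the part of depth in these gaps was not tested beyond thinning.

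Jak1 was found in a larger share of the Chil3-positive cells, and Il13ra1 stood just at the threshold. Jak1 was detected in 42 of 48 Chil3-positive cells (87.5%, interval 74.8 to 95.3), against 15 of 25 Chil3-negative cells (60.0%, interval 38.7 to 78.9). Il13ra1 was detected in 27 Chil3-positive cells (56.2%, interval 41.2 to 70.5) and in 9 Chil3-negative cells (36%, interval 18 to 57.5). Il4ra was detected in 13 Chil3-positive cells (27.1%) and 7 Chil3-negative cells (28%). The 2 members past the threshold compare with 7.69% of all genes that were higher in Chil3-positive cells; none was lower, as 1.53% of all genes were. Over the thinned draws the gap ranged from 9.36 to 32.4 points for Jak1 and from 11.6 to 34.1 for Il13ra1. At any value above 0 the gap of Jak1 was 3.72 points. The gap of Il13ra1 was 20.2 points; it was 18.3 without the 3 cells with endothelial markers and 16.2 without the 3 cells below 1500 genes, so that 1 member then passed the threshold. Chil3-positive cells had more detected genes, a median of 2452 against 2069 in Chil3-negative cells.

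Between Mrc1-positive and Mrc1-negative cells none of the 6 members differed by 20 points, while 15.5% of all genes were higher and 2.7% lower by that much in Mrc1-positive cells. Il4ra was detected in 10 of 32 Mrc1-positive and 10 of 41 Mrc1-negative cells. Jak1 was detected in 25 Mrc1-positive cells (78.1%) and in 32 Mrc1-negative cells (78.0%). The median gap of the 6 members was 0.648 points, against 6.17 points for all genes, although Mrc1-positive cells had a median of 2641.5 detected genes and Mrc1-negative cells 2068.

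C1qa was detected in only 10 cells, so shares among them are coarse. Il13ra1 was detected in 2 of these (20%, interval 2.52 to 55.6), against 34 of 63 C1qa-negative cells (54%, interval 40.9 to 66.6). The 2 carriers, cells 94 and 32, had 69.2 and 63.4 FPKM, above the carrier median of 49.2. Jak1 was detected in 6 C1qa-positive cells (60.0%) and in 51 C1qa-negative cells (81.0%). Socs3 went the other way, with 6 C1qa-positive cells (60.0%) and 22 C1qa-negative cells (34.9%). Its level in the C1qa-positive carriers was low, with a median of 5.80 FPKM against 14.5 FPKM in the C1qa-negative carriers, and at a detection limit of 10 FPKM the gap of Socs3 turned to -12.3 points. Hence 1 member was higher in C1qa-positive cells, where 12.8% of all genes were, and 2 were lower, where 7.27% of all genes were. Il4ra was detected in 4 C1qa-positive cells and in 16 C1qa-negative cells, a gap of 14.6 points. Which members passed depended on the setting: in 1 thinned draw the gap was 22.9 points for Il4ra and -17.0 for Jak1, and at any value above 0 it was 22.3 for Il4ra, -6.89 for Jak1 and 15.2 for Socs3. At 10 FPKM Il13ra1 stood at -19.97 points. Without the 3 cells with endothelial markers the gap of Socs3 was 19.5 points.

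**Figure D3:**
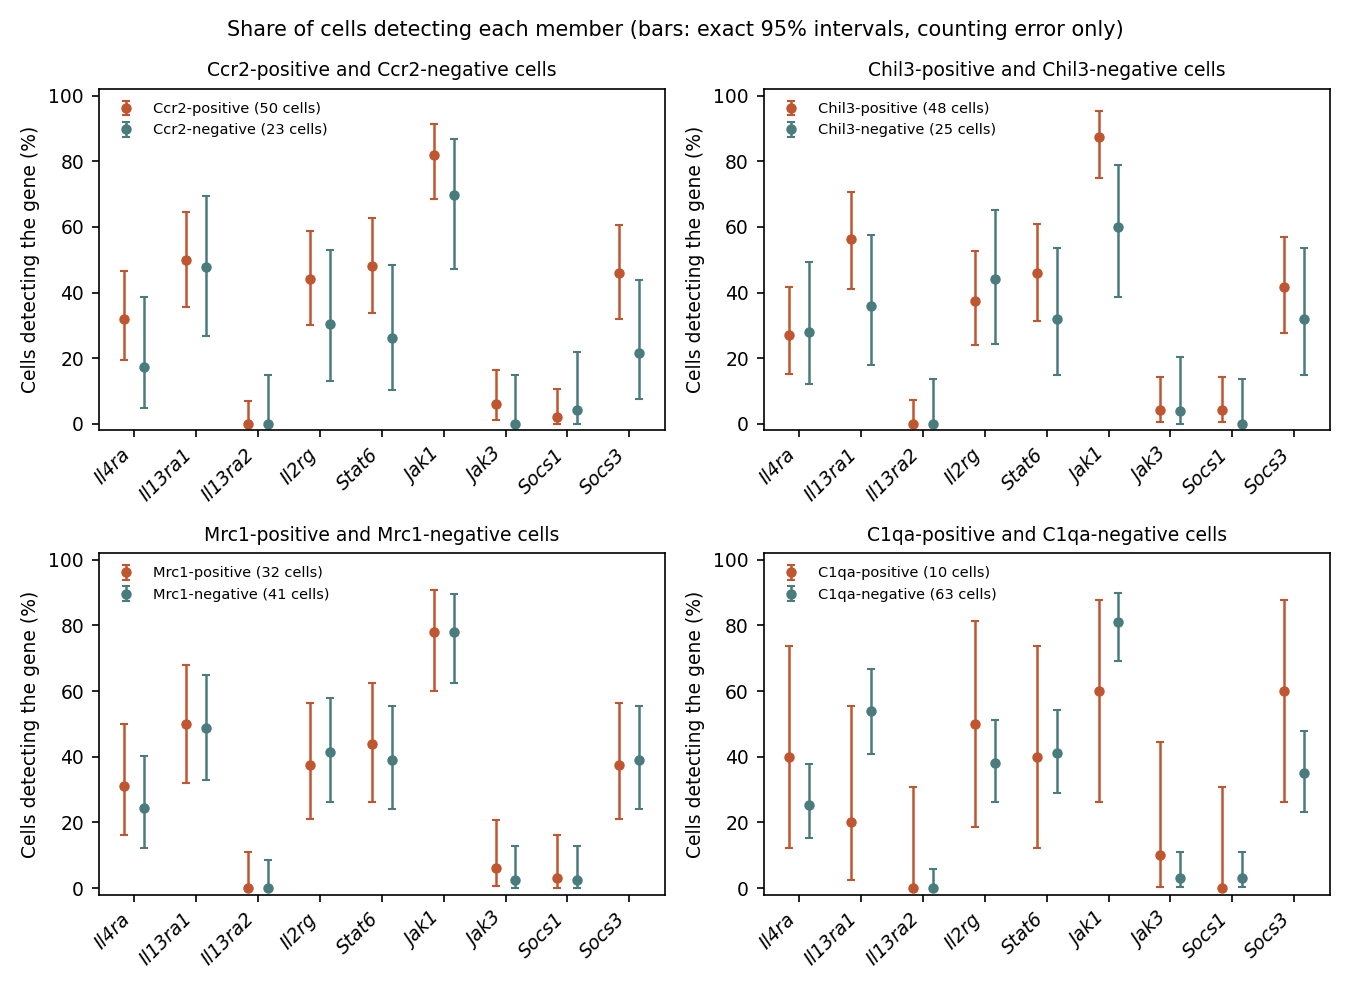
Percentage of cells detecting each of the 9 genes in cells positive (orange) and negative (teal) for Ccr2, Chil3, Mrc1 and C1qa, with exact 95% intervals. The Jak1 points lie apart in the Chil3 panel (87.5% in positive and 60.0% in negative cells) and together in the Mrc1 panel (78.1% and 78.0%).

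Taking the 4 markers together gave 10 combinations, of which the larger are described. The most frequent was Ccr2 with Chil3, in 25 cells that detected a median of 9 of 10 classical monocyte markers and 0 of 11 alveolar macrophage markers. The monocyte list includes Ccr2 and Chil3 themselves, so part of that count was fixed by the choice of cells. Jak1 was detected in 22 of these cells, Il13ra1 in 14, Stat6 in 12, Socs3 in 11, Il2rg in 10 and Il4ra in 7. In 14 cells Chil3 was joined by Mrc1 only; these detected a median of 9 of the 11 alveolar macrophage markers, although cell 58 detected none and cell 83 detected 2. Here Jak1 was detected in 12 cells and Il13ra1 in 10, with levels in the group from 0 to 319 FPKM, and Stat6 in 6, while Il4ra and Il2rg were detected in 3 cells each and Socs3 in 2. Cell 58, the strongest Socs1 carrier, was in this class but detected 8 of the 10 monocyte markers. In the 11 cells with Ccr2 alone, Jak1 was detected in 7, Il13ra1 in 6, Il2rg in 5, Stat6 in 4, Il4ra in 3 and Socs3 in 2.

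Of the 10 C1qa-positive cells, 4 carried Mrc1 without Ccr2 and Chil3. They detected 6 to 8 of 10 interstitial macrophage markers, a list that includes C1qa and Mrc1 themselves. They held no Stat6 and no Socs3. Il2rg was detected in 2 of them and Il4ra, Il13ra1 and Jak1 in 1 each. The 4 cells with Ccr2, Mrc1 and C1qa detected Socs3 in all 4, at 2.59 to 5.94 FPKM, and Il4ra in 3. Both groups are too small to set apart: 4 of 4 cells has an interval of 39.8% to 100% and 0 of 4 an interval of 0% to 60.2%. The 4 cells with no marker held no Il4ra, Il13ra1 or Stat6. They had a median of 1738.5 detected genes, below that of any other combination, and the part of this in their empty rows was not tested.

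The pairing of chains was followed cell by cell from Il4ra. Among its 20 carriers, 6 also detected Il2rg but not Il13ra1 (cells 16, 22, 25, 26, 43 and 75), 5 detected Il13ra1 but not Il2rg (cells 19, 42, 59, 77 and 94), 2 detected both (cells 48 and 86) and 7 detected neither (cells 15, 36, 46, 62, 73, 83 and 84). Outside them, 19 cells had Il13ra1 as the only one of the 3 chains, 11 had Il2rg alone and 10 had both partner chains without Il4ra. None of the 3 chains was detected in 13 cells.

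Neither partner chain differed by 20 points between cells with and without Il4ra, though Il13ra1 fell just short. Il2rg was detected in 8 of 20 Il4ra-positive cells (40.0%, interval 19.1 to 63.9) and in 21 of 53 Il4ra-negative cells (39.6%, interval 26.5 to 54). Il13ra1 was detected in 7 Il4ra-positive cells (35%, interval 15.4 to 59.2) and in 29 Il4ra-negative cells (54.7%, interval 40.4 to 68.4). Its gap was -19.7 points and ranged from -24.4 to -11.6 over the thinned draws, so that some draws passed the threshold. Stat6 was detected in 8 Il4ra-positive cells (40.0%) and 22 Il4ra-negative cells (41.5%), and Jak1 in 17 (85%) and 40 (75.5%). The full type I set of Il4ra, Il2rg, Jak1, Jak3 and Stat6 was detected in 0 of 73 cells. That count leaves room for a share of up to 4.11% when taken as 3 of 73, and up to 4.93% by the exact interval. Without Jak3 the type I set was complete in 4 cells (22, 25, 48 and 86), 5.48% with an interval of 1.51 to 13.4. The type II set was taken as Il4ra, Il13ra1, Jak1 and Stat6, without Tyk2, the kinase bound to Il13ra1. It therefore compares with the type I set without Jak3 and not with the full one. All genes of this type II set were also detected in 4 cells (19, 48, 77 and 86). Each of these cells, of either set, held at least 1 gene of its set under 10 FPKM. Il4ra stood at 1.86 FPKM in cell 19, 1.67 in cell 25, 3.81 in cell 48 and 2.27 in cell 77. Jak1 stood at 5.87 FPKM in cell 22 and 1.52 in cell 86.

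Cells 48 and 86, the cells with 6 members, both belonged to the Ccr2 and Chil3 combination and carried the set in different proportions. Cell 86 had 291 FPKM of Il4ra, 12.3 of Il13ra1, 1.53 of Il2rg, 20.48 of Stat6, 1.52 of Jak1 and 4.78 of Socs3. Cell 48 had 3.81 FPKM of Il4ra, 26.8 of Il13ra1, 290 of Il2rg, 2.14 of Stat6, 60.7 of Jak1 and 136 of Socs3. Cell 86, with the highest Il4ra of all 73 cells, had its Il2rg near the detection limit.

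Socs3 was the 1 member that was found more often with Il4ra by the size threshold. It was detected in 13 of 20 Il4ra-positive cells (65%, interval 40.8 to 84.6), against 15 of 53 Il4ra-negative cells (28.3%, interval 16.8 to 42.3), a gap of 36.7 points; the intervals overlapped slightly. Among 6150 genes compared in the same way, 6.33% were higher by 20 points or more in Il4ra-positive cells and 1.27% lower, and of the 5 members compared 1 was higher and none lower. Socs3 levels did not follow its frequency: its carriers had a median of 5.67 FPKM (lowest 1.45, highest 136) among Il4ra-positive cells and 15.3 FPKM (lowest 1.2, highest 196) among Il4ra-negative cells. With thinning the gap ranged from 21 to 37.2 points. At a detection limit of 10 FPKM it was 13.7 points, and with any value above 0 it was 10.9. Within the Ccr2-positive cells, 12 of 16 Il4ra-positive cells (75%) and 11 of 34 Il4ra-negative cells (32.4%) detected Socs3. Within the Ccr2-negative cells it was 1 of 4 and 4 of 19. In cells with more genes than the median it was 8 of 10 Il4ra-positive and 7 of 26 Il4ra-negative cells, and in the others 5 of 10 and 8 of 27. These divisions were chosen after the values were seen. Il4ra-positive cells had a median of 2349 detected genes and Il4ra-negative cells 2290.

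**Figure D4:**
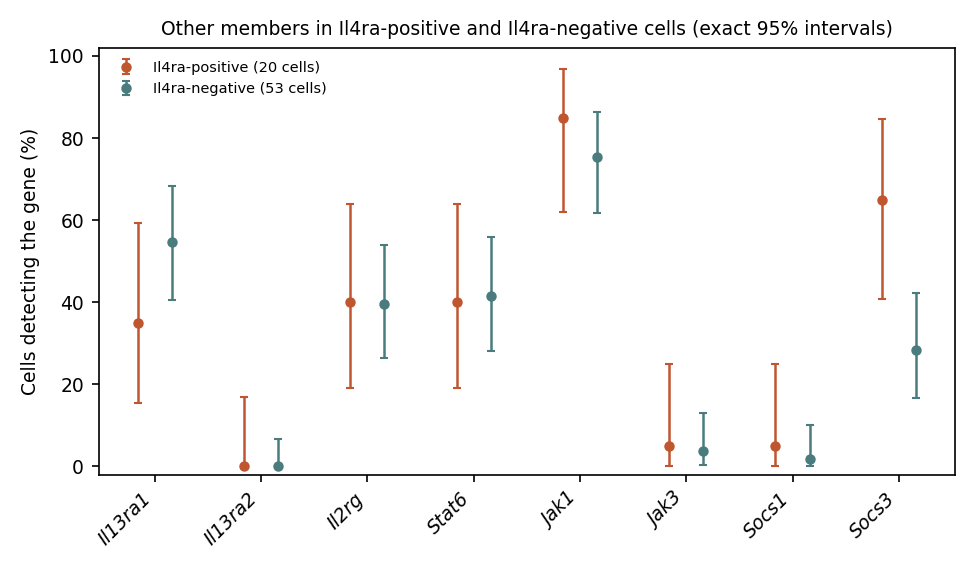
Percentage of cells detecting each of the other 8 genes among the 20 Il4ra-positive (orange) and 53 Il4ra-negative cells (teal), with exact 95% intervals. Socs3 stands at 65% in Il4ra-positive and 28.3% in Il4ra-negative cells, while Il2rg lies at 40.0% and 39.6%.

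Stat6 was found more often with the other receptor chain, in a pair picked out after its values were seen. It was detected in 20 of 36 Il13ra1-positive cells (55.6%, interval 38.1 to 72.1) and in 10 of 37 Il13ra1-negative cells (27%, interval 13.8 to 44.1). Between these classes 3.63% of all genes were higher and 1.48% lower by 20 points or more, and of the 5 members compared 1 was higher and none lower. The gap of 28.5 points was 19.7 at any value above 0 and 11.8 at 10 FPKM. Levels were not higher there, with a carrier median of 11.3 FPKM in Il13ra1-positive cells and 21.6 FPKM in Il13ra1-negative cells. Within the Ccr2-negative cells all Stat6 carriers were Il13ra1 carriers, 6 of 11 Il13ra1-positive against 0 of 12 Il13ra1-negative cells. Within the Ccr2-positive cells the counts were 14 of 25 and 10 of 25. Across all 73 cells, levels of the 6 often-detected members as log2(FPKM + 1) were weakly related: Pearson's r over their 15 pairs lay between -0.18 (Il13ra1 with Socs3) and 0.25 (Jak1 with Socs3). The cells, treated as from 1 mouse, share a capture and their depth differences, and correlations of this size in sparse values are no finding.

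Upstream of the receptor, the ligands were not detected. Il4 and Il13 were listed at 0 in all 73 cells, as were Il5 and Il25, and Il33 was detected in none. Tslp, an epithelial alarmin, was detected in 4 cells with a median of 4.10 FPKM.

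At the level of adaptors and brakes, coverage was broader. Irs2, an adaptor that links Il4ra to PI3-kinase, was detected in 13 cells, and Irs1 was listed at 0. Grb2 was detected in 38 cells, the phosphatase Inpp5d (SHIP1) in 32 and the PI3-kinase subunit Pik3cd in 30. Ptpn1 was detected in 64 cells, Ptpn6 (SHP-1), which dephosphorylates cytokine receptors in blood cells, in 53, Ptpn2 in 32 and Ptpn11 in 12. Of 7 adaptors and of 5 phosphatases, none differed by 20 points between Il4ra-positive and Il4ra-negative cells; Grb2 had a gap of -16.6 points, and of -20.6 in 1 thinned draw. Of 13 listed receptor genes for other cytokines, some were found in more cells than Il4ra and some in fewer. Ifngr1, the interferon-gamma receptor, was found in 67 cells, Csf2ra and Csf2rb, the chains of the GM-CSF receptor, in 56 and 53, Ifnar1 in 50 and Il6ra in 37, while Il6st, the signalling partner of Il6ra, was found in 6. Crlf2, the TSLP receptor, was detected in 8 cells and Il1rl1, the IL-33 receptor, in 2.

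Among the other STAT genes, Stat3 passed the size threshold, as 6.33% of all genes did in that direction, though not at other detection limits. It was detected in 16 of 20 Il4ra-positive cells (80.0%, interval 56.3 to 94.3) and in 29 of 53 Il4ra-negative cells (54.7%, interval 40.4 to 68.4). Its gap of 25.3 points was 13.99 at any value above 0 and 12.3 at 10 FPKM. It was 8.46 points in cells with more genes than the median and 41.9 points in the others. Carrier medians were 28.1 FPKM in Il4ra-positive and 28.5 FPKM in Il4ra-negative cells.

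Downstream, the 24 listed target genes of IL-4 and IL-13 were seldom divided by Il4ra. None was higher by 20 points in Il4ra-positive cells, as 6.33% of all genes compared were. Targets found in 3 cells or fewer, such as Irf4, Ccl17 and Ppargc1b, could not reach that gap with 20 Il4ra-positive cells. Klf4, a transcription factor that cooperates with Stat6, was the 1 target lower by 20 points, as 1.27% of all genes were. It was detected in 10 of 20 Il4ra-positive cells (50%) and in 38 of 53 Il4ra-negative cells (71.7%). In 1 thinned draw its gap was -10.6 points. Clec7a, the beta-glucan receptor dectin-1, was detected in 19 Il4ra-positive cells (95%) and in 40 Il4ra-negative cells (75.5%), a gap of 19.5 points that was 20.7 in the thinned draw, where Clec7a thus passed the threshold and Klf4 did not. Retnla, a strongly IL-4-induced secreted protein, was listed at 0 in all cells. The median gap of the list was 3.11 points, against 3.02 points for all genes compared. The list includes genes found in fewer than 8 cells, which the genes compared do not.

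The genes whose levels across the 73 cells were most like each member were taken by the highest Pearson's r of log2(FPKM + 1) among 6151 genes in at least 8 cells. For Il4ra they were Heatr1 (r = 0.48), Scnm1 (0.48) and Mrps26 (0.45). For Il13ra1 they were Gsto1 (0.43), Vav3 (0.40) and Mlf2 (0.39), and for Il2rg Ruvbl1 (0.47), Usp3 (0.47) and Ezh2 (0.46). Stat6 was most like Top2b (0.48), Ift52 (0.43) and Cuta (0.42), Jak1 most like Dad1 (0.44), Snx6 (0.43) and Sec11a (0.43), and Socs3 most like Ncoa6 (0.50) and Fto (0.50). None of the 18 genes chosen in this way was a member of the chain. Members were a very small part of the 6151 genes scanned, so this count says little about the chain. By Spearman's rank measure 5 of the 18 were still among the 3 most alike, so the names depend on the measure.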

How the data were processed

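Polyadenylated RNA of 73 cells captured on a Fluidigm C1 chip was amplified with SMARTer chemistry and sequenced from Nextera XT libraries, per the labels' protocols. The submitters' processing notes name build mm10 and the tools TopHat2 2.1.0, Cuffnorm, Cufflinks 2.2.1 and CASAVA 1.8. For annotation, cell filters and use of strand, nothing was given in the sources used here. FPKM values, as deposited, were normalised per cell by the authors' tools. Beside them the authors deposited a signal table of fragment counts, each cell's divided by its own factor; of 100696 low values 99.6% lay within 0.1 of a whole step, and fragments were estimated by dividing by the step. No count model was fitted. Spike-in rows were left out, and 0 columns lacked a sample.

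Detection was FPKM of 1 or more. Shares have exact Clopper-Pearson intervals (SciPy 1.17.1), and a count of 0 is given as 3 of 73. A gap of 20 percentage points was the size threshold, and 20 draws thinned each cell to 347003 mouse fragments. Gene positions come from GENCODE vM21 (GRCm38, the build called mm10) and promoters from RefSeq. The gap and likeness scans were run on shuffled data with planted gaps and near copies of members. These were stronger than the gaps and correlations reported for the members. The check therefore covers the working of the scans and not effects of the size described. The genes named are the 9 members, the 4 markers, the pathway and cell type lists, and the 3 genes most like each member detected in at least 8 cells; pairs said to be chosen after their values were seen are exceptions. Members and lists were chosen with earlier results of these data known. A few genes of these lists are not reported here.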

Additional observations from a re-analysis of the deposited data

How the results depend on the processing

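Detection limits moved the shares most. A changed limit applied to the genes that define the classes as well as to the members. With any FPKM above 0, or at least 1 fragment in the count table, the share was 54.8% for Stat6, 87.7% for Jak1 and 50.7% for Socs3, Il4ra with Il13ra1 was found in 19.2% of cells, and 0 members differed by 20 points between Ccr2-positive and Ccr2-negative cells. At 10 FPKM or more the share was 16.4% for Il4ra, 24.7% for Il2rg, 27.4% for Stat6, 54.8% for Jak1 and 21.9% for Socs3, Il4ra was found with Il2rg in 2.74% and with Stat6 in 4.11% of cells, and 1 member differed between C1qa-positive and C1qa-negative cells, where the gap of Socs3 was -12.3 points. The cause was not tested. In 1 thinned draw, and on rescaling FPKM to one total per cell, the shares, joint shares and counts of differing members stayed within their limits. In that draw Il4ra passed between the C1qa classes in place of Jak1, so only the count was kept there. Over the 20 draws the lowest gaps fell under the threshold for Stat6 (11.5 points) and Socs3 (15.8) between the Ccr2 classes. Between the Chil3 classes they did so for Jak1 (9.36) and Il13ra1 (11.6). Leaving out the 3 cells with endothelial markers, or the 3 cells below 1500 genes, kept the shares and joint shares within their limits too. However, 1 member and not 2 then differed between Chil3-positive and Chil3-negative cells. No paired analysis was possible because all cells form 1 group and the labels name no animals. With 10 C1qa-positive cells and 20 Il4ra carriers, only large differences in share could be seen.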

Other observations

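Target genes of IL-4 and IL-13 that few cells carried were followed into single cells, a view chosen after the values were seen. Of the listed targets, 8 were detected in 1 to 5 cells, and 16 cells held at least 1 of them. Il4ra was detected in 7 of these 16 cells and in 13 of the other 57. For Stat6 the counts were 7 of the 16 and 23 of the 57, for Il2rg 5 and 24, and for Il13ra1 5 and 31. How genes at large divided between these cells was not tested. The 16 cells had a median of 2470.5 detected genes and the other 57 had 2204. Arg1, the arginase of alternatively activated macrophages, was detected in 5 cells. It stood at 1466 FPKM in cell 83, which had 80.2 FPKM of Il4ra, and at 686 FPKM in cell 42, which had 24.4 FPKM of Il4ra. The other Arg1 carriers, cells 67, 76 and 63, had 1040, 535 and 319 FPKM of Arg1, and Il4ra was listed at 0 in each. Ccl17, a chemokine that draws Ccr4-bearing T cells, was detected in 3 cells and was highest in cell 25 at 7841 FPKM, where Il4ra stood at 1.67, Il2rg at 177 and Stat6 at 61.7 FPKM. It reached 1822 FPKM in cell 95, the cell with the most Stat6, where Il4ra was listed at 0. Irf4, a transcription factor induced by IL-4, was detected in cells 16 and 62, at 24.1 and 155 FPKM, and both detected Il4ra. Ccl24 was detected in 4 cells, 1 of them an Il4ra carrier. Ccl22 was highest in cell 17 at 110 FPKM, where no member of the chain was detected.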
